A study of Mus musculus with 11 samples.

Results

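The 10 genes described here, Tcf7, Lef1, Satb1, Bach2, Actn1, Igfbp4, Dtx1, Nsg2, Rflnb and Aff3, mark naive or resting T cells, and some of them were selected on a measured value, a higher RNA level in fat Tregs that lack Srebf2 than in those that have it. All 10 were among the 10992 genes of the deposited expression table. Regulatory T cells (Tregs) restrain immune responses and are defined by the transcription factor Foxp3. They were sorted from spleen and from visceral adipose tissue (VAT) as live cells positive for CD3, CD4 and Foxp3, and their RNA was sequenced in bulk. All mice were male, aged 25 weeks, and carried a YFP-Cre recombinase driven by Foxp3, so that the controls carried Cre too. In the wild-type (WT) mice Srebf2, the gene of the cholesterol regulator SREBP2, was intact. In the knockout (KO) mice both copies of Srebf2 were flanked by loxP sites and so open to deletion in cells that express Foxp3. VAT gave 3 libraries of each genotype, and for spleen 2 of each, replicates 2 and 3, were analysed. Another labelled spleen KO sample, replicate 1, was not analysed here. The labels do not say whether each library is another mouse, so the p-values here measure spread between libraries that may be technical.

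TCF-1, the product of Tcf7, and LEF1 are related DNA-binding proteins with an HMG box. They bind beta-catenin as a coactivator or TLE proteins as corepressors. In T cells they are most abundant in naive and resting or memory-like cells and are turned down as cells become effectors. Tregs follow a similar course: resting Tregs of lymphoid organs carry TCF-1, LEF1 and the repressor BACH2, while effector Tregs in tissues such as fat carry less of them and more of factors such as BLIMP-1, the product of Prdm1.

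Across the 4 groups all 10 genes had the same order of mean levels: VAT WT lowest, then VAT KO, then spleen WT, then spleen KO. In each genotype every VAT library lay below every spleen library for each of the 10 genes, where 31% of all genes tested did so in WT and 30.4% in KO. Levels are deposited RPKM, in which reads are scaled to gene length and to the size of the library. Neighbours in that order did not always separate. VAT WT and VAT KO overlapped for Bach2 and Igfbp4, and the 2 spleen groups overlapped for Tcf7, Bach2, Actn1, Dtx1 and Nsg2. For Lef1, Satb1, Rflnb and Aff3 no neighbouring groups overlapped. A bulk library cannot tell fewer cells that carry an RNA from less of that RNA in each cell.

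**Figure D1:**
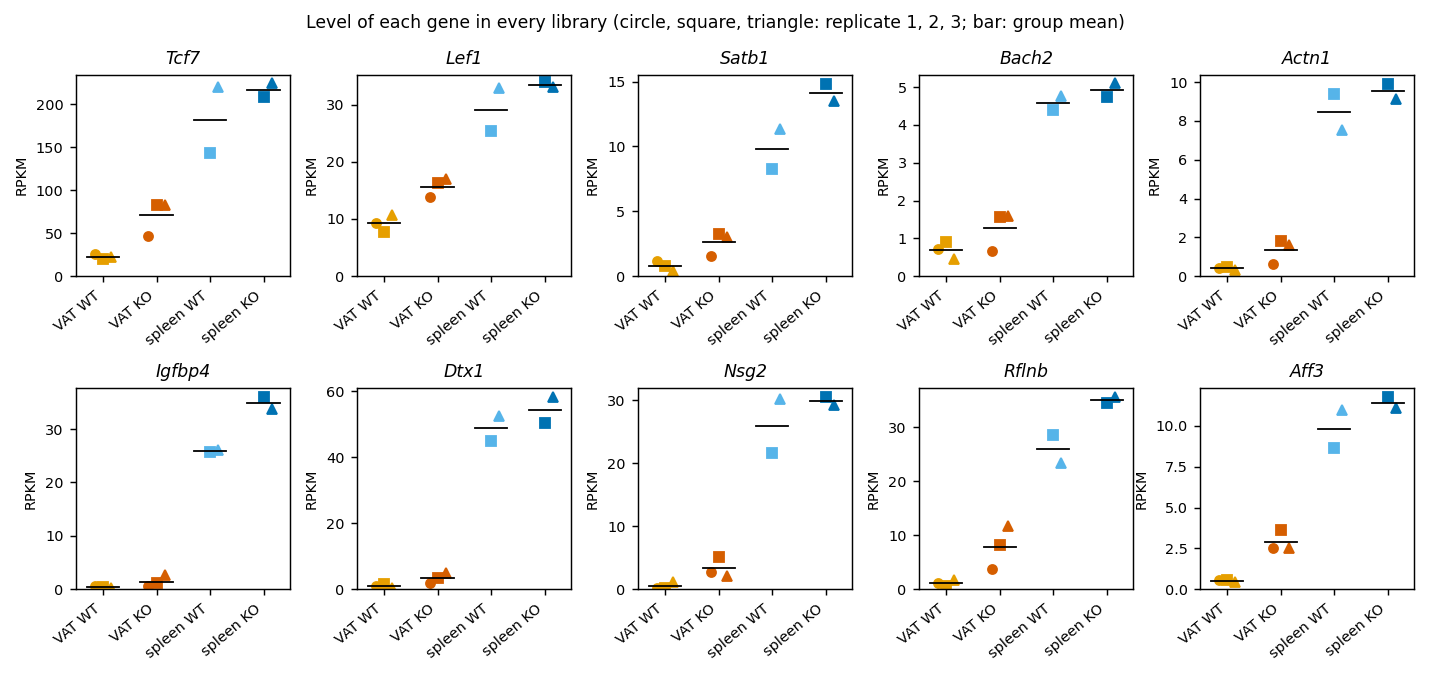
RPKM of each of the 10 genes (vertical axis, linear, starting at 0, scaled for each gene) in every library of the 4 groups (horizontal axis), with replicates 1, 2 and 3 as circles, squares and triangles and the group mean as a bar. All 10 genes have their lowest mean in VAT WT and their highest in spleen KO, and in 9 of 10 genes VAT KO replicate 1 is the lowest VAT KO library.

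The libraries' RPKM summed to between 185319 and 210778, read depth was unknown, and 9551 to 9774 genes per library reached 1 RPKM. The 2 spleen WT libraries were the least alike replicates, with a correlation across genes of 0.932 against 0.968 to 0.974 within the other groups. Srebf2, the targeted gene, stood at 0.263 to 1.23 RPKM in VAT KO against 15.6 to 30.5 in VAT WT, and at 1.59 and 2.59 in spleen KO against 10.5 and 23.2 in spleen WT. Foxp3, the gene of the sort, stood at 13.3 to 16.4 RPKM in the VAT libraries and 6.97 to 8.87 in the spleen libraries.

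The transcription factors are described first, for their known role. Tcf7 (Entrez 21414; chromosome 11, 52246527 to 52283383 in GRCm38, the assembly of mm10) was the most abundant of the 10 per length in every group. Tcf7 stood at 25.6, 19.8 and 22.5 RPKM in VAT WT, at 46.6, 82.5 and 82.3 in VAT KO, at 143 and 220 in spleen WT and at 208 and 224 in spleen KO. All VAT KO libraries lay above all VAT WT libraries, with VAT KO replicate 1 nearest to them, and both spleen genotypes lay above VAT, with spleen WT replicate 3 inside the range of spleen KO. The VAT KO mean was 3.11 times the VAT WT mean (70.5 ± 20.7 against 22.6 ± 2.91 RPKM; SD, n = 3 each).

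Lef1 (Entrez 16842; chromosome 3, 131110297 to 131224357), the close relative of Tcf7, had the smallest differences between VAT and spleen in both genotypes. Lef1 stood at 9.38, 7.80 and 10.7 RPKM in VAT WT, at 13.9, 16.2 and 16.9 in VAT KO, at 25.4 and 32.9 in spleen WT and at 34.0 and 33.1 in spleen KO. The groups did not overlap, although spleen WT replicate 3 and spleen KO replicate 3 were 32.9 and 33.1. Its VAT KO mean was 1.69 times that of VAT WT, the smallest such ratio of the 10 genes. An annotated antisense gene, Gm43352, covers 13.8% of Lef1 exonic bases, and the library kit does not mark strand, so a part of the Lef1 value could come from it.

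Satb1 (Entrez 20230; chromosome 17, 51736187 to 51833290) encodes a chromatin organiser that is needed when Tregs form in the thymus and is held low in mature Tregs. Satb1 stood at 1.13, 0.757 and 0.404 RPKM in VAT WT, at 1.55, 3.27 and 2.98 in VAT KO, at 8.22 and 11.3 in spleen WT and at 14.8 and 13.5 in spleen KO. Bach2 (Entrez 12014; chromosome 4, 32238413 to 32586109), the repressor that pairs with small Maf proteins and holds back effector differentiation, was the lowest of the 10 in spleen. Bach2 stood at 0.708, 0.908 and 0.441 RPKM in VAT WT, at 0.662, 1.56 and 1.59 in VAT KO, at 4.39 and 4.77 in spleen WT and at 4.75 and 5.10 in spleen KO. In VAT KO replicate 1 Bach2 lay inside the VAT WT range, and the 2 other VAT KO libraries lay above it. Bach2os, an antisense gene, covers 5.40% of Bach2 exonic bases.

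Aff3 (Entrez 16764; chromosome 1, 38175393 to 38630178) belongs to the AFF family, whose members act as scaffolds of complexes that promote transcription elongation. Aff3 stood at 0.550, 0.543 and 0.448 RPKM in VAT WT, at 2.5, 3.66 and 2.52 in VAT KO, at 8.65 and 10.9 in spleen WT and at 11.8 and 11.1 in spleen KO. Its VAT WT libraries lay close together and all below 1 RPKM, and the VAT KO mean was 5.63 times theirs.

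The other 5 genes encode proteins of signalling, the cytoskeleton and vesicles. Dtx1 (Entrez 14357; chromosome 5, 120680203 to 120711867) encodes Deltex, a ubiquitin ligase of the Notch pathway that is linked to T cell anergy. Dtx1 stood at 0.927, 1.68 and 0.378 RPKM in VAT WT, at 1.79, 3.57 and 4.98 in VAT KO, at 44.9 and 52.6 in spleen WT and at 50.5 and 58.1 in spleen KO. The lowest VAT KO and the highest VAT WT library, 1.79 and 1.68, nearly met, and the gap to spleen was far wider than the gap between VAT genotypes. Igfbp4 (Entrez 16010; chromosome 11, 99040005 to 99052655), which encodes a secreted binding protein of insulin-like growth factors, stood at 0.638, 0.435 and 0.258 RPKM in VAT WT, at 0.570, 1.11 and 2.66 in VAT KO, at 25.7 and 26.1 in spleen WT and at 35.9 and 33.7 in spleen KO. In VAT its 2 genotypes overlapped, and in spleen both KO libraries lay above both WT libraries.

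Actn1 (Entrez 109711; chromosome 12, 80167542 to 80260420) encodes alpha-actinin-1, which crosslinks actin filaments. Actn1 stood at 0.411, 0.476 and 0.316 RPKM in VAT WT, at 0.644, 1.82 and 1.60 in VAT KO, at 9.39 and 7.51 in spleen WT and at 9.92 and 9.14 in spleen KO. The VAT genotypes did not overlap, but VAT KO replicate 1 lay much nearer to VAT WT than the other 2 did. Antisense genes cover 8.15% of Actn1 exonic bases. Nsg2 (Entrez 18197; chromosome 11, 31999704 to 32059211), known in neurons as an endosomal trafficking protein, stood at 0.201, 0.271 and 1.11 RPKM in VAT WT, at 2.77, 5.17 and 2.06 in VAT KO, at 21.6 and 30.2 in spleen WT and at 30.4 and 29.2 in spleen KO. It was the single gene of the 10 whose lowest VAT KO library was replicate 3. Rflnb (Entrez 76566; chromosome 11, 76019194 to 76027782), which encodes the filamin-binding protein refilin B, stood at 1.14, 0.611 and 1.80 RPKM in VAT WT, at 3.79, 8.23 and 11.7 in VAT KO, at 28.6 and 23.4 in spleen WT and at 34.4 and 35.6 in spleen KO. Its VAT KO mean was 6.68 times that of VAT WT, the largest such ratio of the 10 genes.

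Between the VAT genotypes the values above describe how some members were picked and are no evidence of their own, so no test is given. All VAT KO libraries lay above all VAT WT libraries for 8 of 10 genes, where 8.97% of the 10429 genes tested did so, and nothing is read from that share. The ratio of means ran from 1.69 to 6.68 with a median of 3.39. Without VAT KO replicate 1 all 10 genes separated, where 1645 of 10408 genes tested did so. Without VAT WT replicate 1 the count was 9, where 1417 of 10402 genes tested did so. VAT KO replicate 1 was the lowest of the 3 VAT KO libraries for 9 of the 10 genes, against 34.6% of all genes tested. That library also had the lowest Srebf2 of the 3, at 0.263 RPKM against 0.6 and 1.23.

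The genes' 5' ends are shown because all 10 shared an order of group means and because TCF-1 and LEF1 bind a known core. Part of that order follows from how some members were picked. RefSeq, on GRCm38.p6, gives 19 starts for the 10 genes. The 250 bases before each start were searched on both strands for the TCF/LEF core CTTTGA, the FOXO motif TGTTTAC, the BACH and AP-1 motif TGANTCA and the SREBP motif TCACNCCAC. The letters CTTTGA, the only form of the TCF/LEF core searched, were found at 2 of 19 starts. These were in Bach2 and in the most downstream start of Lef1, while 13.8% of all 32851 promoters in the table hold the letters. Windows with another form of the core are not counted. FOXO, BACH and AP-1, and SREBP letters were found at 0 of 19 starts, against 3.17%, 6.75% and 1.05% of all promoters. A match is a description and not a binding site, and its lack says only that these letters are not in this window. The lines below give 250 bases 5' to 3' on the gene's strand, and capitals mark TCAAAG, the core read on the opposite strand. The most upstream Lef1 window and the Rflnb window hold none and are shown for comparison.
Lef1, most upstream start, chr3:131110047-131110296, plus strand: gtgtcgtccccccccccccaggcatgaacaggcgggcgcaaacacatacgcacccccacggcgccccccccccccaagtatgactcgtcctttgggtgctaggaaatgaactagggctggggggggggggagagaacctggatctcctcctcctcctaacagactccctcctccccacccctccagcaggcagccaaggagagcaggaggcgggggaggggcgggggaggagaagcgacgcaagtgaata
Lef1, most downstream start, chr3:131156044-131156293, plus strand: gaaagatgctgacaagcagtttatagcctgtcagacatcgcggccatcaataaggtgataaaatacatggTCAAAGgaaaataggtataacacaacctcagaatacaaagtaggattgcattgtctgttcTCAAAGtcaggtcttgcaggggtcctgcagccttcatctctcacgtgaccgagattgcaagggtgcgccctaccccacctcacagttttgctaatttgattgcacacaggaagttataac
Bach2, chr4:32417185-32417434, plus strand: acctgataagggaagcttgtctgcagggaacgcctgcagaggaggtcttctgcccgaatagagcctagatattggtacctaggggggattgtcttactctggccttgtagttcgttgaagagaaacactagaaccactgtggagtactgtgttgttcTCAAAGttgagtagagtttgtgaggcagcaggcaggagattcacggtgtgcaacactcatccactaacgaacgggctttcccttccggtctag
Rflnb, chr11:76027783-76028032, minus strand: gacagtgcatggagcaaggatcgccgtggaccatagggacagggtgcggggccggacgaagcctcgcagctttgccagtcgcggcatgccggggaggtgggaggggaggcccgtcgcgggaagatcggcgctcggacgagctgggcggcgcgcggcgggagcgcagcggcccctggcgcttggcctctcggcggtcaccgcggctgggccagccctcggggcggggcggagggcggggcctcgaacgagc
In the downstream Lef1 window the cores begin 180 and 120 bases before the start, and in Bach2 93 bases before it. The GC content of these windows was 66.4% and 44.8% for Lef1, 50.4% for Bach2 and 76.0% for Rflnb, against a median of 52.4% over all promoters. The downstream Lef1 window and the Bach2 window lie inside their genes and cover 0 bases of annotated exons.

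The comparison of VAT with spleen asked how far these genes differ between a tissue Treg and a lymphoid Treg, and it was made in each genotype. In WT all 10 genes were lower in VAT, and each passed the test. At 1 RPKM, Bach2, Actn1, Igfbp4 and Aff3 had 0 VAT WT libraries, and Satb1, Dtx1 and Nsg2 had 1. These genes entered the test through groups where they are higher. The VAT WT mean ran from 1.71% of the spleen WT mean for Igfbp4 to 31.9% for Lef1. Dtx1 stood at 2.04%, Nsg2 at 2.03%, Rflnb at 4.56%, Actn1 at 4.74%, Aff3 at 5.24%, Satb1 at 7.80%, Tcf7 at 12.5% and Bach2 at 14.98%. Lef1, Bach2 and Tcf7 had the largest shares, and Igfbp4, Nsg2 and Dtx1 the smallest.

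The test was limma on log2(RPKM + 1), with p-values adjusted by Benjamini-Hochberg over all 10429 genes tested and a call at an adjusted p under 0.05. Differences on this scale understate those of low genes. In WT, Dtx1 had the largest difference, -4.69 ± 0.32 (SE; limma adjusted p = 4.8e-07), and Lef1 the smallest, -1.55 ± 0.18 (adjusted p = 5.2e-05). Tcf7 differed by -2.92 ± 0.25 (adjusted p = 2.9e-06) and Bach2 by -1.74 ± 0.25 (adjusted p = 0.000322, the largest of the 10). Of all genes tested, 15.4% were called lower in VAT WT than in spleen WT, 1607 genes, and 1116 were called higher. Scaling by median ratios moved this split to 1030 lower and 1391 higher and the median of all genes from -0.12 to 0.01, and the 10 genes were called lower under it as well. The median of the 10 was -2.88. The VAT WT libraries also entered the contrast that picked some of the members, so a member picked for low values there leans toward this difference.

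In KO the same 10 genes were lower in VAT than in spleen, and again all 10 passed, where 6.94% of genes tested were called lower (724 genes, with 798 higher). The VAT KO mean ran from 4.17% of the spleen KO mean for Igfbp4 to 46.7% for Lef1. Tcf7 stood at 32.6%, Bach2 at 25.7%, Aff3 at 25.4%, Rflnb at 22.6%, Satb1 at 18.4%, Actn1 at 14.2%, Nsg2 at 11.2% and Dtx1 at 6.35%. The largest difference was that of Igfbp4, -3.96 ± 0.30 (limma adjusted p = 1.7e-06), and the smallest that of Lef1, -1.05 ± 0.18 (adjusted p = 0.00170). Tcf7 differed by -1.65 ± 0.25 (adjusted p = 0.000597), and the median of the 10 was -2.12. Scaling by median ratios moved the split over all genes to 557 lower and 908 higher. Here the choice of members leans the other way, since a member picked for high values in VAT KO has a smaller difference from spleen.

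**Figure D2:**
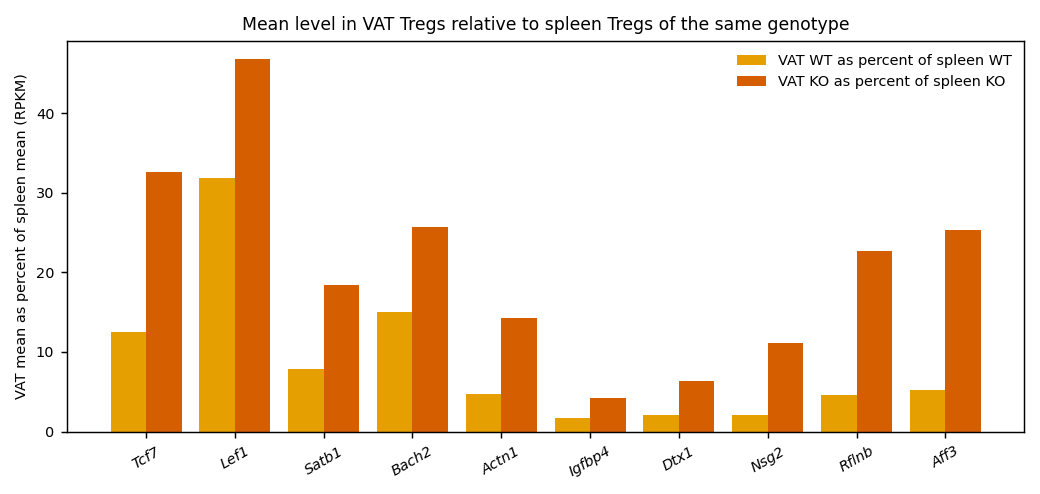
Mean RPKM in VAT as a percent of the spleen mean of the same genotype (vertical axis, starting at 0) for the 10 genes (horizontal axis), with WT in light and KO in dark orange bars; the bars are ratios of group means and carry no error bar. The bar for KO is the taller one for each gene, and Lef1 has the tallest pair at 31.9% and 46.7%.

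In spleen the difference of KO from WT came from libraries outside the VAT contrast on which some members were picked. Its standard error was not free of that contrast, since each gene's spread was estimated over all 4 groups, VAT included. No member passed: limma called 0 of the 10 and 0% of all genes tested, with 873 genes, 8.37%, at an unadjusted p under 0.05 and none of the 10 among them. All 10 means were higher in KO, where 46.8% of all genes tested had a difference above 0. For 5 genes, Lef1, Satb1, Igfbp4, Rflnb and Aff3, both KO libraries lay above both WT libraries, and 15% of all genes did so.

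These spleen differences were imprecise, and the 95% confidence interval of every gene held both negative and positive values. The ratio of KO to WT means ran from 1.08 for Bach2 to 1.45 for Satb1. Satb1 had the largest difference, 0.51 on the log2(RPKM + 1) scale with a 95% confidence interval from -0.15 to 1.16 (limma adjusted p = 0.656). For Tcf7 it was 0.28 with an interval from -0.30 to 0.87 (adjusted p = 0.744), and for Lef1 0.21 with an interval from -0.22 to 0.64 (adjusted p = 0.744). Rflnb stood at 0.42 with an interval from -0.40 to 1.24, and Igfbp4 at 0.41 with an interval from -0.30 to 1.13. These intervals do not show that spleen levels were the same in both genotypes.

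The sign of the spleen difference rested in part on spleen WT replicate 2, which was the lower of the 2 spleen WT libraries for 8 of the 10 genes, against 51.8% of all genes tested. Without it, Tcf7 stood at -0.026 and Nsg2 at -0.018, and Lef1, Bach2, Dtx1 and Aff3 lay between 0.027 and 0.055. Satb1 stood at 0.30, Actn1 at 0.31, Igfbp4 at 0.40 and Rflnb at 0.56. Without spleen WT replicate 3 all 10 lay above 0, from 0.018 for Actn1 to 0.72 for Satb1, and 0 passed. Leaving it out leaves 1 spleen WT library, which was assumed to vary like the other groups.

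The KO-minus-WT differences of both tissues stood side by side as follows, on the log2(RPKM + 1) scale. They were 1.95 in VAT and 0.42 in spleen for Rflnb, 1.56 and 0.28 for Tcf7, 1.49 and 0.22 for Nsg2, and 1.35 and 0.21 for Aff3. Dtx1 stood at 1.14 and 0.15, Satb1 at 1.02 and 0.51, Actn1 at 0.71 and 0.16, Lef1 at 0.70 and 0.21, Igfbp4 at 0.68 and 0.41, and Bach2 at 0.41 and 0.09. On this scale the VAT value was the larger one for each gene. With a pseudocount of 5 the order turned for Igfbp4 alone, at 0.23 in VAT and 0.37 in spleen. Satb1 then stood at 0.39 in VAT and 0.38 in spleen. The gap between the tissues was not tested, because it contains the contrast on which some members were picked.

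**Figure D3:**
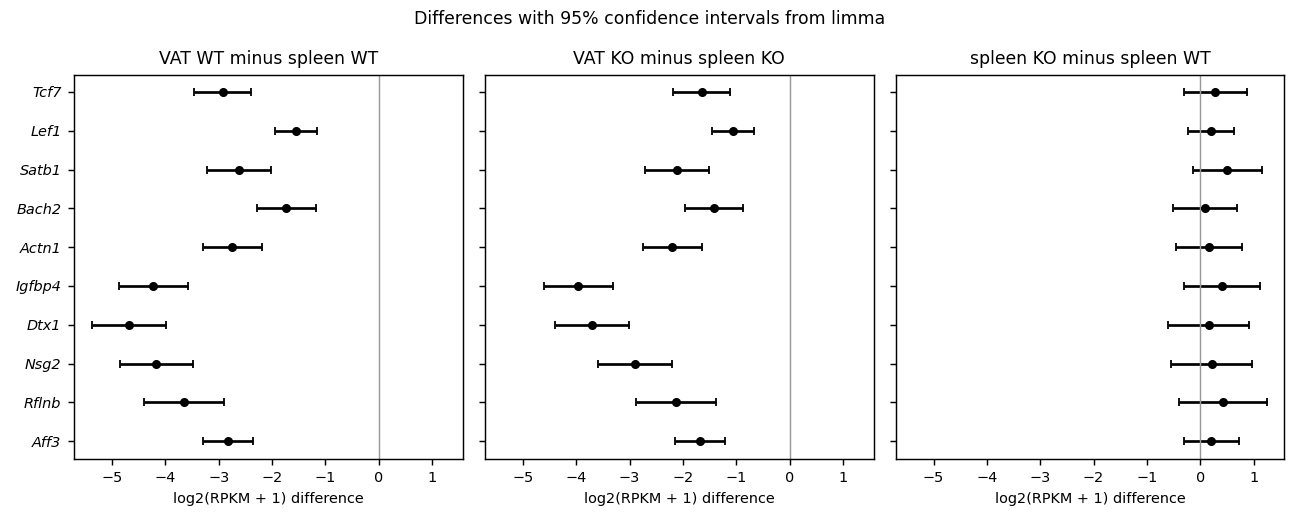
Differences on the log2(RPKM + 1) scale (horizontal axis, the same in all 3 panels) for the 10 genes (vertical axis), with 95% confidence intervals from limma as bars. In both comparisons of VAT with spleen all 10 intervals lie below 0, and in spleen KO against WT all 10 intervals include 0.

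Genes with profiles like those of Tcf7 and Lef1 were sought over all 10 libraries. Likeness was the root mean square difference between log2(RPKM + 1) profiles, each centred on its own mean, over 6627 candidates whose mean reached 5 RPKM. Nearest to Tcf7 were Aff3 at 0.23 log2 units, Slamf6 at 0.26, Satb1 at 0.27, Cd96 at 0.28 and St8sia6 at 0.32. Aff3 and Satb1 are themselves among the 10. The VAT libraries on which some members were picked entered this measure, so the place of a member near Tcf7 may follow in part from that choice. Slamf6, a receptor found on memory-like and resting T cells, had means of 5.38, 14.4, 42.6 and 42.7 RPKM in the order VAT WT, VAT KO, then WT spleen, then KO spleen. Lef1 lay farther from Tcf7, at 0.61, and Dtx1 was the farthest of the 10 at 0.99. Nearest to Lef1 were Sidt1 at 0.092, Ikbke at 0.12, Utrn at 0.15, Gtf2i at 0.15 and Ptpn6 at 0.17. In likeness to Lef1, Aff3 ranked 1236 of the 6627 candidates, Tcf7 2052 and Dtx1 6374. Sidt1, a transmembrane protein of the SID1 family, had means of 3.83, 7.38, 13.4 and 15.2 RPKM in the same order of groups.

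Of 25 further genes of naive and resting T cells, 18 fell in VAT WT against spleen WT and 3 rose. Of all genes tested, 15.4% were called lower and 10.7% higher. The median of the 25 was -1.38, against -0.12 over all genes tested. Slamf6 was among those that fell (-2.78 ± 0.23; limma adjusted p = 2.3e-06). The 3 that rose were Ramp1, a receptor-modifying protein (2.06), Il7r, the IL-7 receptor chain (1.32), and Pde3b, a phosphodiesterase (1.34). In KO 17 fell and 2 rose, with a median of -1.01, and 11 fell without spleen KO replicate 3. Between VAT genotypes 2 of the 25 rose, Txk, a kinase of T cell receptor signalling (1.42 ± 0.22, adjusted p = 0.0179), and Slamf6 (1.26 ± 0.20, adjusted p = 0.0209), and 0 fell, where 0.307% of genes tested were called higher. Neither passed without VAT KO replicate 2, VAT KO replicate 3, VAT WT replicate 1 or VAT WT replicate 2 (adjusted p from 0.0529 to 0.158), and the Slamf6 call also needed VAT WT replicate 3, spleen KO replicate 2 and spleen KO replicate 3 (0.0547 to 0.0553 with each of them left out). In spleen KO against WT 0 of 25 passed, with Treml2 at 0.76 (adjusted p = 0.594), Ets1 at 0.35 (0.596) and Pik3ip1 at 0.39 (0.614) as the smallest p-values.

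Most effector Treg genes rose in VAT. Of 24 tested, 17 rose in VAT WT against spleen WT, where 10.7% of all genes were called higher, with a median of 1.5. Areg, the growth factor amphiregulin, stood at 578 ± 82.2 RPKM in VAT WT (SD, n = 3) against 4.87 ± 0.80 in spleen WT (n = 2; 6.62 ± 0.21, limma adjusted p = 8.3e-10). Il1rl1, the IL-33 receptor, differed by 5.32 and Ccr2, a chemokine receptor, by 4.22. The exceptions were Itgae, the integrin chain CD103 (-3.54), and Tnfrsf9, the costimulatory receptor 4-1BB (-0.80), which fell. In KO 18 rose and Itgae alone fell, with a median of 1.80, where 7.65% of all genes were called higher. Between VAT genotypes 0 of the 24 passed by limma, with a median of -0.15 and 17 of 24 below 0. Prdm1 rose by 2.60 in WT and by 1.86 in KO between the tissues, the latter not without spleen KO replicate 3 (1.48, adjusted p = 0.108). In spleen KO against WT 0 of 24 passed, with Nfil3 at -1.03 (adjusted p = 0.306), Il1rl1 at 0.72 (0.564) and Tigit at -0.64 (0.582).

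Of 18 tested partners of TCF-1 and LEF1, 3 rose in VAT WT and 0 fell, where 10.7% of all genes tested were called higher and 15.4% lower, with a median of 0.21. The number that rose was 5 without spleen WT replicate 3. They were Jup, plakoglobin, a relative of beta-catenin (6.59 ± 0.23 RPKM in VAT WT, SD, n = 3, against 0.455 ± 0.347 in spleen WT, n = 2; 2.40 ± 0.25, limma adjusted p = 2.1e-05), Axin2 (0.93), a scaffold of beta-catenin breakdown that is itself a known target of TCF and LEF factors, and Axin1 (0.84), a related scaffold. Axin1 did not pass without spleen WT replicate 2 (0.35, adjusted p = 0.243) or VAT WT replicate 3 (0.78, 0.0729). In KO Jup (2.45) and Axin2 (0.87, adjusted p = 0.0231) rose, where 7.65% of all genes tested were called higher. Axin2 did not pass there without VAT KO replicate 1 or 2 or without either spleen KO library (adjusted p from 0.0710 to 0.172), and between VAT genotypes 0 of 18 passed, with a median of 0.02. In spleen KO against WT, Axin1 (0.58, adjusted p = 0.594), Pygo2 (0.44, 0.626) and Ctnnb1, the gene of beta-catenin (0.40, 0.641), had the smallest p-values of these partners.

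Of 15 genes of the Notch and Deltex pathway, Rbpj, the DNA-binding factor of Notch signalling, rose in VAT in both genotypes (2.38 ± 0.20 in WT, limma adjusted p = 3.2e-06; 1.72 in KO). Dtx1, which is not among the 15, fell, and in WT its relatives Dtx3l (-0.94) and Dtx4 (-1.09) fell too. So 1 of the 15 rose and 2 fell in WT, where 10.7% of all genes tested were called higher and 15.4% lower. In KO 1 rose and 0 fell, against 7.65% and 6.94% of all genes tested. Nothing is read from these counts. The Dtx4 call was lost in every fit that left out 1 library except those without VAT KO replicate 3 and without VAT WT replicate 2 (adjusted p up to 0.143), and that of Dtx3l without VAT WT replicate 1 (0.0693) or spleen WT replicate 3 (0.140). Between VAT genotypes 0 of 15 passed. In spleen KO against WT 0 of 15 passed, with Rbpj at 0.47 (adjusted p = 0.596) and Dtx2 at 0.52 (0.689).

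Among 11 paralogs and binding partners of the 10 proteins, 4 rose in VAT WT and 0 fell, against the same shares of 10.7% and 15.4% over all genes. Igfbp7, of the same family as Igfbp4, stood at 32.8 ± 8.47 RPKM in VAT WT (SD, n = 3) against 0.816 ± 0.996 in spleen WT (n = 2; 4.30 ± 0.31, limma adjusted p = 8.9e-07), the reverse of Igfbp4. Aff4, a relative of Aff3, rose by 1.45, Maff, a small Maf protein, by 1.19, and Flna, the filamin that refilins bind, by 0.92. Flna did not pass without spleen WT replicate 2 (0.53, adjusted p = 0.0658). In KO Igfbp7 (4.69), Maff (1.96) and Aff4 (1.39) rose, where 7.65% of all genes tested were called higher. Between VAT genotypes 0 of 11 passed, where 44 of all 10429 genes tested did. Bach1 (-0.83, adjusted p = 0.628), Flna (0.42, 0.636) and Igfbp7 (-0.60, 0.638) had the smallest p-values in spleen KO against WT.

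**Figure D4:**
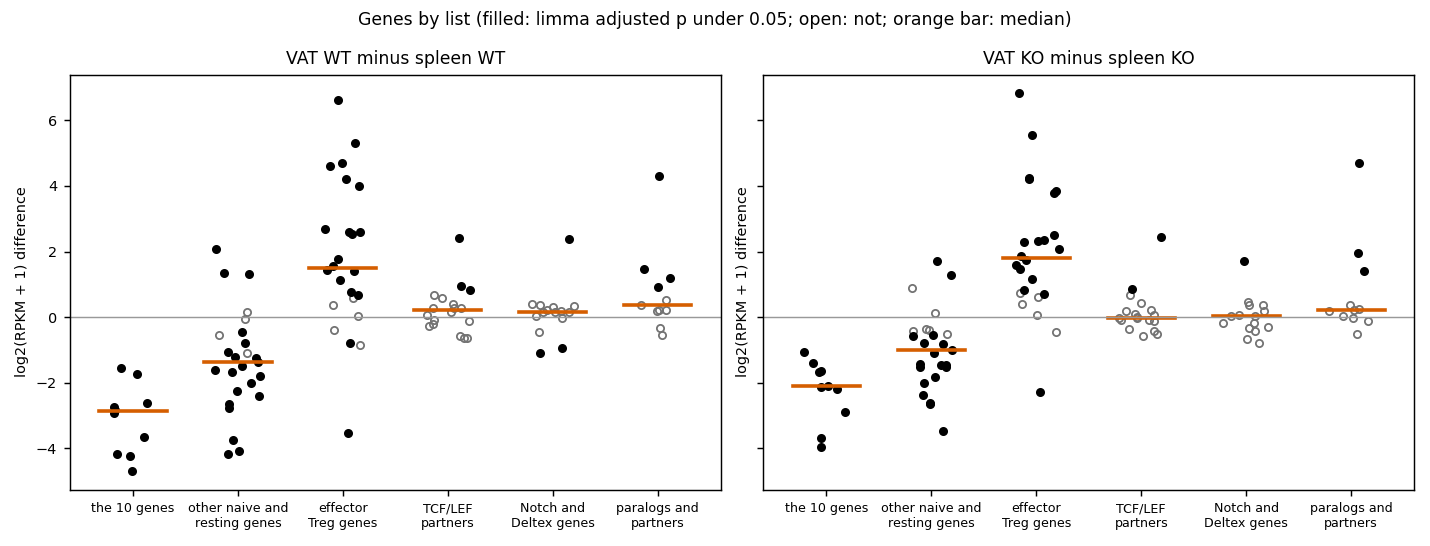
Differences between VAT and spleen on the log2(RPKM + 1) scale (vertical axis) for each tested gene of 6 lists (horizontal axis), in WT on the left and KO on the right; filled points passed limma's test, open points did not, and orange bars are medians. The 10 genes lie below 0 in both panels with medians of -2.88 and -2.12, and the effector genes have medians of 1.5 and 1.80.

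Markers of cells that the sort should leave out were read beside these values. B cells also express Bach2 and Aff3. The 8 measured of 12 B cell markers summed to 87.4, 204 and 54.1 RPKM in VAT WT, 65.4, 54.1 and 108 in VAT KO and 101 to 134 in spleen. Their highest sum was in VAT WT replicate 2. Bach2 stood at 0.908 RPKM in that library, against 0.708 and 0.441 in VAT WT replicates 1 and 3. Aff3 stood there at 0.543 RPKM, against 0.550 and 0.448. The 5 measured of 16 myeloid markers summed to 14.1, 15.7 and 12.8 RPKM in VAT WT, 20.3, 46.2 and 45.4 in VAT KO and 180 to 243 in spleen, with VAT KO replicate 1 the lowest VAT KO library as it was for Tcf7.

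Nearly all of the myeloid sum was Ctss, the protease cathepsin S, which ran from 11.8 to 44.9 RPKM in VAT libraries and from 176 to 235 in spleen libraries. Ctss was lower in VAT than in spleen (-3.89 in WT and -2.42 in KO). Between VAT genotypes Ctss differed by 1.31 ± 0.25 (limma adjusted p = 0.0449), and it did not pass with VAT KO replicate 2 or 3, any 1 of the VAT WT libraries, or 1 of the spleen KO libraries left out (adjusted p from 0.0874 to 0.263). The other 4 measured markers were far lower. The macrophage receptor Csf1r ran from 0.034 to 0.144 RPKM in VAT libraries and from 0.116 to 0.828 in spleen libraries. Adgre1, the macrophage marker F4/80, stood at 0.030 to 0.366 RPKM in VAT, at 0.226 and 0.819 in spleen KO and at 1.18 and 1.45 in spleen WT, and was lower in VAT WT than in spleen WT (-1.02, adjusted p = 0.0137). Fcer1g, an Fc receptor chain, reached 3.95 RPKM in VAT KO replicate 3 and 2.85 in spleen WT replicate 2, and Flt3, a receptor of dendritic cells and progenitors, reached 2.73 in spleen WT replicate 2. Of 14 markers of adipocytes, stroma and endothelium 2 were measured, Lipe and Pecam1. They summed to 6.75 to 9.42 RPKM in VAT WT, 11.8 to 14.4 in VAT KO and 18.9 to 38.3 in spleen. Most of each sum was Pecam1, with means of 5.63 RPKM in VAT WT, 10.4 in VAT KO, 23.7 in spleen WT and 27.1 in spleen KO. Those means lie in the same order as the means of the 10 genes. The listed endothelial markers Cdh5 and Kdr were not measured, and which cells gave the Pecam1 RNA was not tested. Of 9 markers for CD8 T cells, gamma-delta T cells and NK cells 3 were measured, with sums of 74.7 to 191 RPKM in VAT WT, 104 to 129 in VAT KO and 35.0 to 61.4 in spleen, and most of the sum in VAT was Nkg7. Foxp3 was higher in VAT than in spleen (0.89 ± 0.17 in WT, limma adjusted p = 0.00265), and stood at 15.2 ± 1.68 RPKM in VAT KO against 15.3 ± 0.53 in VAT WT (SD, n = 3 each). The part of these cells in the levels of the 10 genes was not tested.

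**Figure D5:**
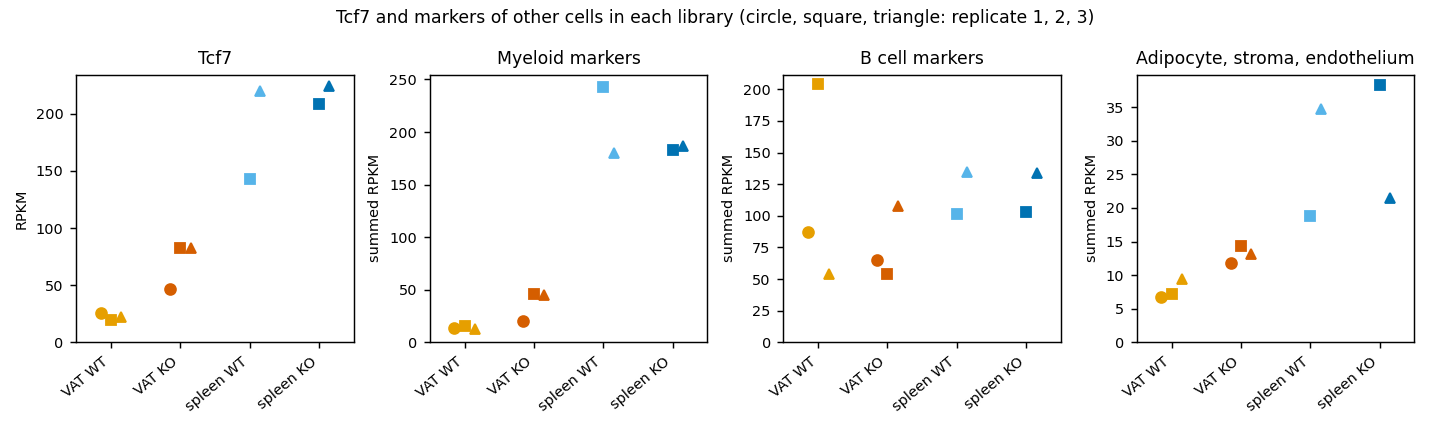
RPKM of Tcf7 and summed RPKM of the measured markers of myeloid cells, B cells, and adipocytes, stroma and endothelium (vertical axes, starting at 0) in every library of the 4 groups (horizontal axis), with replicates 1, 2 and 3 as circles, squares and triangles. The myeloid sum, mostly Ctss, is lowest in VAT WT at 12.8 to 15.7 and highest in spleen at 180 to 243, while the B cell sum is highest in VAT WT replicate 2 at 204. The sum for adipocytes, stroma and endothelium holds Lipe and Pecam1 alone and is mostly Pecam1.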

How the data were processed

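RNA was measured in sorted Tregs. Libraries were made from MicroPrep RNA with SMART-seq and Nextera XT, per the labels' protocols, and do not mark strand. STAR and mm10 are named in the submitters' processing notes. The authors deposited 1 table of RPKM values per gene and library, per the file headers. The sources used here do not name the counter, gene models, scaling denominator or filter. Read depth is therefore unknown, and counting error cannot be stated.

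Groups came from the labels of 11 samples, 10 of which matched a column. Spleen KO replicate 1 was not analysed here, and 1 column, headed as a spleen WT library, matched no labelled sample and was not used. Date-like symbols, 15 in all, were replaced through their Entrez identifiers. Coordinates are RefSeq's on GRCm38.p6, and exon overlaps are from GENCODE.

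Values were tested as log2(RPKM + 1) over the 10429 genes with at least 1 RPKM in at least 2 libraries. All 10 members passed this filter. Bach2, Actn1, Igfbp4 and Aff3 had 0 VAT WT libraries at 1 RPKM, and Satb1, Dtx1 and Nsg2 had 1. These genes passed through groups where they are higher, so their passing supports nothing. One limma fit (version 3.58.1, R 4.3.3) held 4 group means with trend on, robust off and no covariate, with 6 residual and 6.44 prior degrees of freedom. Tests were two-sided, and the fit was tested on simulated data.

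The members, lists and tests were chosen with earlier results of these data known. Calls of the lists between VAT genotypes are therefore descriptions and no evidence of their own. From each of 5 further lists the text names the 3 genes with the smallest p in VAT WT against spleen WT and in spleen KO against WT, and the 5 genes nearest to Tcf7 and to Lef1. Of the genes this rule names, 2 are not reported here. Il7r, Pde3b, Txk, Itgae, Tnfrsf9, Prdm1, Nkg7, Ctss, Csf1r, Adgre1, Fcer1g, Flt3, Lipe and Pecam1 were named after their values were seen. As alternatives, 1 choice at a time was changed: the pseudocount (0.1 or 5), the filter (none, or a mean of 5 RPKM), the scaling (quantile or median-ratio), the groups fitted (the 2 compared alone), the replicate number as a block, and the libraries (1 left out).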

Additional observations from a re-analysis of the deposited data

How the results depend on the processing

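The 3 tested comparisons of the 10 genes kept their calls under every alternative run: 10 of 10 were lower in VAT in both genotypes (8 of 8 with the filter at a mean of 5 RPKM, which drops Bach2 and Actn1), and 0 passed in spleen KO against WT. In these comparisons no call of a single one of the 10 genes crossed the threshold with any library left out. With the replicate number as a block the counts were 10, 10 and 0 as well. Deviations of same-numbered libraries from their group means correlated at -0.092, 0.049 and -0.147 between VAT genotypes, at -0.061 in both spleen pairs, at 0.092 and 0.184 between VAT WT and spleen WT, and at 0.003 and 0.046 between VAT KO and spleen KO. The labels do not say what a number marks, and the libraries were not treated as pairs. The block moved the genes called over the whole table from 2723 to 2066 in WT and from 1522 to 1096 in KO. Of calls of named genes outside the 10, the block ended those of Dtx4 in WT (-0.92, adjusted p = 0.0904) and Axin2 in KO (0.83, 0.0647).

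Signs changed in spleen KO against WT without spleen WT replicate 2 for Tcf7, Nsg2 and Dtx2, and the cause was not tested. With 1 library left out their differences ran from -0.026 to 0.59 for Tcf7, from -0.018 to 0.45 for Nsg2 and from -0.0054 to 1.05 for Dtx2, the upper ends being those without spleen WT replicate 3. Without spleen WT replicate 3, 1395 of all genes were called in that comparison, against 0 with all libraries. They included 0 of the 10 and, of the other genes named, Nfil3, Il1rl1, Axin1, Ets1, Bach1 and Flna (adjusted p from 0.00994 to 0.0271). Without spleen KO replicate 2, 13 were called, and without spleen WT replicate 2, 5. The VAT KO-minus-WT differences of low genes depended on the pseudocount: Nsg2 stood at 2.64 with 0.1 and 0.58 with 5, and Aff3 at 2.27 and 0.51. Between VAT genotypes Txk did not pass with a pseudocount of 5 (adjusted p = 0.0609), nor Ctss with 0.1, with 5 or with no filter (0.0523 to 0.0638). With the 2 compared groups alone, Axin1 (0.0681), Dtx3l (0.0765) and Dtx4 (0.104) did not pass in WT, and with median-ratio scaling Dtx4 did not (0.0635). With unknown depth, levels under 1 RPKM carry an error that the files do not give.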
